A study of Mus musculus with 16 samples.

Results

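Inflammasomes are protein platforms of innate immune cells that turn the detection of damage or infection into cytokine release and lytic cell death. A sensor protein (NLRP3, NLRP1B, NLRC4 or AIM2) recruits the adaptor ASC, which the gene Pycard encodes, and ASC clusters caspase-1. Active caspase-1 cleaves the precursors of IL-18 and of its relative IL-1β and opens gasdermin D, whose fragment forms pores in the plasma membrane. Much of the interest in these genes in dorsal root ganglia (DRGs) comes from their expression in macrophages around the neuron bodies and from the ability of IL-1β to sensitise nociceptors.

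The genes described here were Nlrp3, Nlrp1b, Nlrc4, Aim2, Pycard, Casp1, Casp4, Gsdmd and Il18, which are 9 of the 52636 genes counted. They were chosen by name as the core sensors, adaptor, caspases and executors of the pathway. All 9 passed the filter on low counts and are among the 21371 genes tested.

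RNA was sequenced from the L3-6 DRGs of 16 male C57Bl6/J mice aged 3 to 4 months, with 1 mouse per library and 4 mice in each of 4 groups. SNI-Saline mice had spared nerve injury (SNI), in which the common peroneal and sural branches of the sciatic nerve of the left leg are ligated and cut and the tibial branch is kept, followed by saline injections. Sham-Saline mice had sham surgery and saline, Sham-DMI mice had sham surgery and the tricyclic antidepressant desipramine (DMI), and SNI-DMI mice had SNI and DMI. DMI was given at 15 mg/kg into the peritoneum 2 times a day for 3 weeks, starting 4 weeks after surgery per the labels, while the study's methods give the interval in months. No group carried a transgene. All mice were of 1 strain and 1 sex, and the side of the ganglia taken is not given in the sources used here.

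Between 41194238 and 73920332 reads per library fell on genes, 79.56% to 81.17% of those counted. Levels are given as counts scaled to each library's TMM-corrected total (CPM). A count of 0 in these libraries would allow up to 0.0412 to 0.0749 CPM, taking 3 reads as the limit, and no inflammasome gene was at 0 in any library. The labels give spinal cord as tissue beside DRG as cell type. Markers of sensory neurons summed to 9872.5 to 12181 CPM per library, against 9.84 to 20.4 CPM for 9 spinal cord markers, of which Olig2, Slc6a5, Slc32a1 and Opalin were at 0 in some libraries. Injured-neuron markers summed to 82.3 to 88.2 CPM in Sham-Saline and to 286 to 313 CPM in SNI-Saline. Library numbers 17 to 24 were all DMI and 33 to 40 all saline, so library order and treatment cannot be told apart.

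The 9 genes lie on 6 chromosomes of GRCm38 (mm10) and all are annotated as protein coding, with reads counted over their exons. The sensors are Nlrp3 (ENSMUSG00000032691, chr11:59541568-59566956), Nlrp1b (ENSMUSG00000070390, chr11:71153102-71230733), Nlrc4 (ENSMUSG00000039193, chr17:74425438-74459142) and Aim2 (ENSMUSG00000037860, chr1:173350879-173466040). Pycard (ENSMUSG00000030793) is at chr7:127989708-127993867. The caspase genes are neighbours on the plus strand, Casp1 (ENSMUSG00000025888) at chr9:5298517-5307265 and Casp4 (ENSMUSG00000033538) at chr9:5308828-5336783. Gsdmd (ENSMUSG00000022575) is at chr15:75862327-75867408 and Il18 (ENSMUSG00000039217) at chr9:50554827-50581840. The counts of Pycard are uncertain, since 485 of its exon bases are shared with Gm45205 of the opposite strand and the use of strand in counting is not given in the sources used here. Of all 50-base words in Nlrp1b transcripts, 1.45% also occur in its relatives Nlrp1a and Nlrp1c-ps.

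RefSeq promoters, taken as 250 bases before to 50 bases after a start site on GRCm38.p6, were held for 8 of the 9 genes. They were searched on both strands for the NF-kB core (GGG and TTTCC with any 2 bases between them), the core of the interferon-stimulated response element (GAAA repeated after any 2 bases) and the gamma-activated sequence TTCNNNGAA, which 1.63%, 3.44% and 8.3% of all 32851 promoters of this length hold. NF-kB is the factor classically linked to priming of Nlrp3, and the other 2 motifs are bound by interferon-activated factors. The Casp4 promoter held 2 NF-kB core matches, which began 93 and 14 bases before the start site, and the other 7 genes held no match to any of the 3 motifs in this window. The 250 bases before the start site are shown for the caspase neighbours and for Nlrp3 and Aim2, the sensors that the DMI comparisons turn on, 5′ to 3′ on the plus strand with NF-kB core matches in capitals:
Casp4, chr9:5308599-5308848: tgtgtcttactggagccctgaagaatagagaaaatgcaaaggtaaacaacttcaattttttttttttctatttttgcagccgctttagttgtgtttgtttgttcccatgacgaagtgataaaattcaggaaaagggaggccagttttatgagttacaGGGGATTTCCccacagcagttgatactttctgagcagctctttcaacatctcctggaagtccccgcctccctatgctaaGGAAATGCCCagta
Casp1, chr9:5298267-5298516: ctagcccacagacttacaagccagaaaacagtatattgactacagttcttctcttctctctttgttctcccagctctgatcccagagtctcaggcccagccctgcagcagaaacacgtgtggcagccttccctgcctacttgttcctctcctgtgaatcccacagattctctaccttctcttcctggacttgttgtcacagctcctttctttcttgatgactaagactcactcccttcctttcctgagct
Nlrp3, chr11:59541319-59541568: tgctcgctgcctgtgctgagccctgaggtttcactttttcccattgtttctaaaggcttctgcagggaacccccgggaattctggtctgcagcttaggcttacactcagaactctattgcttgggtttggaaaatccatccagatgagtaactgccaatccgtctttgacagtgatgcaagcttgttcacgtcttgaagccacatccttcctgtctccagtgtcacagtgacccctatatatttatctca
Aim2, chr1:173420354-173420603: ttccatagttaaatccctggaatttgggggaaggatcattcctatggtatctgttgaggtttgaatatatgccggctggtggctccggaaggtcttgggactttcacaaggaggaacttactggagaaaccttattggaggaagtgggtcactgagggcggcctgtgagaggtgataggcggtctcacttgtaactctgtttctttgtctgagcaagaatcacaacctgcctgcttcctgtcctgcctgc

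To compare genes with each other, CPM were divided by the kilobases of exon of each gene. In Sham-Saline DRGs Casp1 had the highest level of the 9, at 5.59 ± 0.290 CPM per kb (SD, n = 4), followed by Il18 at 4.66 ± 0.589 and Gsdmd at 1.75 ± 0.166. Casp4 was at 0.771 ± 0.0858, Pycard at 0.349 ± 0.113 and Aim2 at 0.313 ± 0.0146 CPM per kb. Nlrp3, at 0.175 ± 0.0432, Nlrp1b, at 0.0787 ± 0.0279, and Nlrc4, at 0.0542 ± 0.00673 CPM per kb, had the lowest levels. The caspase, the cytokine and the pore protein thus had higher levels per length than the adaptor and all 4 sensors. The neighbours Casp1 and Il18, Pycard and Aim2, and Nlrp1b and Nlrc4 overlapped between mice, and the other neighbours in this order did not.

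The order of the first 4 genes was the same in all groups. Aim2 stood above Pycard in SNI-Saline, at 0.418 ± 0.142 against 0.407 ± 0.0670 CPM per kb, with overlapping ranges. In Sham-DMI Pycard and Aim2 did not overlap, at 0.386 ± 0.0344 and 0.226 ± 0.0315 CPM per kb. Nlrp1b, at 0.105 ± 0.0615, stood above Nlrp3, at 0.0738 ± 0.0438 CPM per kb, in SNI-DMI, where both, as well as Aim2 and Nlrc4, overlapped with their neighbours, and so did Casp4 and Pycard.

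**Figure D1:**
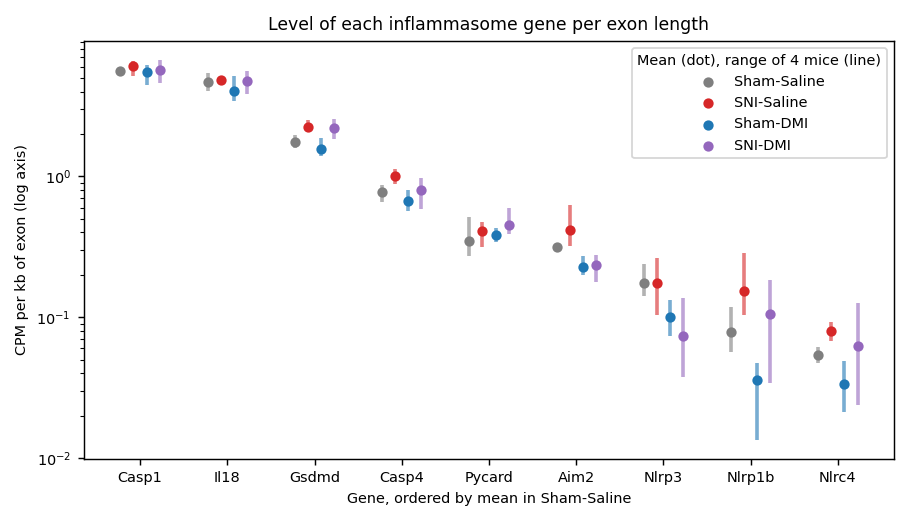
Level of each inflammasome gene in CPM per kb of exon on a log axis, with the mean (dot) and the range of 4 mice (line) per group. Casp1 and Il18 lie highest in all 4 groups, between 4.06 and 6.03 CPM per kb on average, and Nlrp3, Nlrp1b and Nlrc4 lie lowest.

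Among the sensors, Aim2, which binds double-stranded DNA in the cytosol, separated DMI from saline mice most clearly. Its levels were 1.04, 1.07, 1.11 and 1.16 CPM in Sham-Saline and 1.12, 2.20, 1.20 and 1.33 CPM in SNI-Saline. In Sham-DMI they were 0.751, 0.769, 0.949 and 0.694 CPM, and in SNI-DMI 0.976, 0.858, 0.627 and 0.814 CPM. All 8 DMI libraries lay below all 8 saline libraries, and SNI-Saline replicate 2 stood above every other library. Aim2 was the only one of the 9 genes for which the DMI and saline libraries did not overlap. The share of all tested genes that separate in this way was not computed, so how unusual this is cannot be told. Between 38 and 135 reads per library lay behind the Aim2 levels, and between 38 and 56 in the DMI groups.

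Nlrp3, the sensor that responds to potassium efflux and membrane damage, was at 0.678, 0.621, 0.576 and 0.966 CPM in Sham-Saline and at 1.07, 0.782, 0.418 and 0.550 CPM in SNI-Saline. It was at 0.444, 0.357, 0.300 and 0.536 CPM in Sham-DMI and at 0.558, 0.153, 0.231 and 0.256 CPM in SNI-DMI. The saline groups overlapped with each other throughout, and Sham-DMI lay wholly below Sham-Saline. In SNI-DMI, 3 of 4 mice lay below every SNI-Saline mouse. These levels rest on 10 to 64 reads per library.

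Nlrp1b, another of the sensors, was at 0.748, 0.395, 0.358 and 0.483 CPM in Sham-Saline and at 0.725, 1.81, 0.691 and 0.657 CPM in SNI-Saline. It was at 0.0854, 0.288, 0.225 and 0.300 CPM in Sham-DMI and at 1.15, 0.567, 0.214 and 0.723 CPM in SNI-DMI. Sham-DMI was the lowest group and did not overlap with Sham-Saline, while SNI-Saline replicate 2 and SNI-DMI replicate 1 were the highest libraries. Between 5 and 111 reads per library lay behind these levels.

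Nlrc4, which signals with NAIP proteins after contact with bacterial flagellin and secretion systems, was at 0.278, 0.226, 0.296 and 0.242 CPM in Sham-Saline and at 0.326, 0.440, 0.337 and 0.443 CPM in SNI-Saline. It was at 0.102, 0.178, 0.125 and 0.236 CPM in Sham-DMI and at 0.610, 0.352, 0.115 and 0.121 CPM in SNI-DMI. All SNI-Saline mice lay above all Sham-Saline mice, and SNI-DMI held both the highest library and some of the lowest. With 5 to 35 reads per library, Nlrc4 was the most sparsely counted of the 9 genes.

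Pycard, the adaptor, was at 1.15, 1.96, 1.03 and 1.16 CPM in Sham-Saline and at 1.63, 1.53, 1.82 and 1.21 CPM in SNI-Saline. It was at 1.47, 1.30, 1.47 and 1.62 CPM in Sham-DMI and at 2.25, 1.47, 1.62 and 1.55 CPM in SNI-DMI. All 4 groups overlapped, and Sham-Saline replicate 2 stood apart from the other 3 mice of its group.

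Casp1, the gene of the caspase that matures IL-18, was at 8.56, 8.81, 7.79 and 8.32 CPM in Sham-Saline and at 9.78, 9.89, 7.71 and 8.76 CPM in SNI-Saline. It was at 9.27, 6.70, 8.09 and 8.97 CPM in Sham-DMI and at 10.1, 7.0, 6.91 and 9.81 CPM in SNI-DMI. The groups overlapped throughout. Casp4, which encodes caspase-11, the mouse receptor of cytosolic lipopolysaccharide, was at 3.22, 2.46, 2.80 and 2.96 CPM in Sham-Saline and at 4.20, 3.40, 4.06 and 3.25 CPM in SNI-Saline. It was at 2.12, 2.50, 2.97 and 2.36 CPM in Sham-DMI and at 3.54, 2.53, 2.19 and 3.60 CPM in SNI-DMI. Every SNI-Saline mouse lay above every Sham-Saline mouse for Casp4, and SNI-DMI overlapped with both saline groups.

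Gsdmd, the pore-forming substrate of both caspases, was at 3.95, 3.77, 4.67 and 4.21 CPM in Sham-Saline and at 5.98, 5.07, 5.22 and 4.87 CPM in SNI-Saline. It was at 3.30, 3.55, 3.60 and 4.45 CPM in Sham-DMI and at 6.03, 4.67, 4.37 and 5.80 CPM in SNI-DMI. Within each treatment the injured mice were higher, with no overlap under saline and with 1 SNI-DMI mouse inside the Sham-DMI range. Il18, the cytokine gene, was at 4.63, 4.83, 4.16 and 5.62 CPM in Sham-Saline and at 5.07, 5.33, 4.84 and 4.83 CPM in SNI-Saline. It was at 3.79, 3.51, 4.17 and 5.28 CPM in Sham-DMI and at 5.79, 3.98, 4.30 and 5.50 CPM in SNI-DMI, and all groups overlapped.

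**Figure D2:**
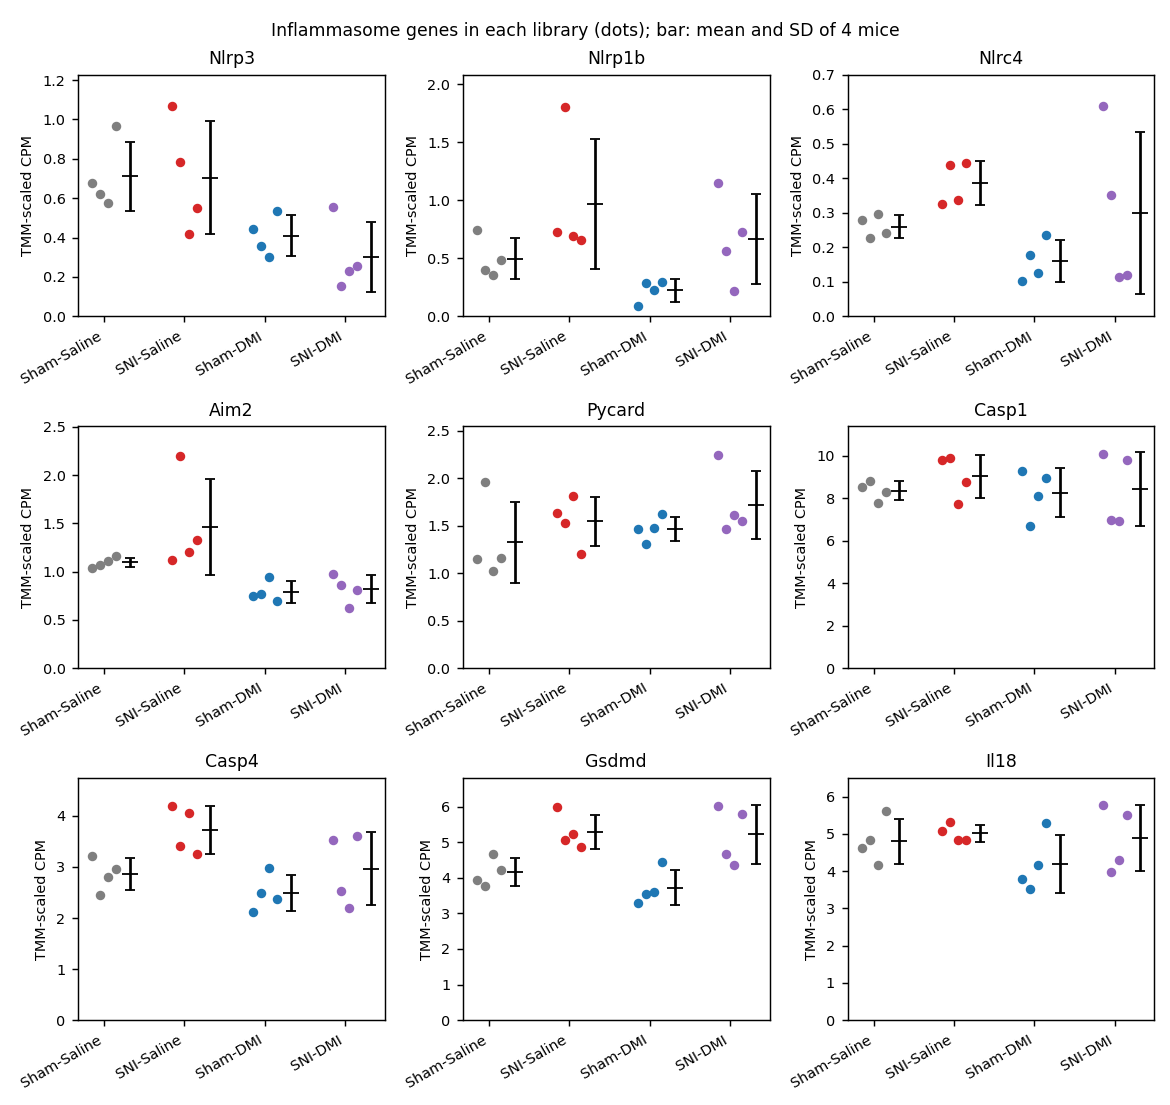
TMM-scaled CPM of the 9 inflammasome genes in each library (dots, replicates 1 to 4 from left to right) with the mean and SD of 4 mice (bar) per group. For Aim2 the DMI libraries, at 0.627 to 0.976 CPM, all lie below the saline libraries, at 1.04 to 2.20 CPM, and for Gsdmd all SNI-Saline mice lie above all Sham-Saline mice.

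The SNI-Saline versus Sham-Saline comparison asked what injury changed without DMI. The fitted log2 fold change was above 0 for 8 of the 9 genes, all but Nlrp3, with a median of 0.35 against -0.001 over all 21371 genes, of which 49.9% were above 0. No inflammasome gene reached an adjusted p under 0.1 in edgeR's quasi-likelihood test with Benjamini-Hochberg adjustment, and 3 had an unadjusted p under 0.05. Over all genes 12.0% were called in this comparison and 4914 had an unadjusted p under 0.05. DESeq2 called 2 of the 9, Casp4 and Gsdmd, against 21.2% of the genes to which it gave an adjusted p, and gave none to the sparsely counted Nlrp3, Nlrp1b and Nlrc4.

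Gsdmd came closest, with a log2 fold change of 0.35 (SE 0.127) and an adjusted p of 0.106 in edgeR. For Casp4 the values were 0.38 (SE 0.162) and 0.159, and for Nlrp1b 0.97 (SE 0.437) and 0.188. These 3 genes passed the study's cut-offs for differentially expressed genes (DEGs), an unadjusted p under 0.05 with a log2 change of 0.32 or more either way, as did 3.64% of all genes in the upward direction. Casp4, Gsdmd and Nlrc4 did not overlap between the groups, against 7.67% of all genes that lay higher without overlap. Nlrc4 had a log2 fold change of 0.57 with an SE of 0.42 and an adjusted p of 0.449.

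For the other genes the log2 fold change after injury was 0.42 (SE 0.203) for Aim2, 0.22 (SE 0.203) for Pycard, 0.11 (SE 0.133) for Casp1, 0.06 (SE 0.142) for Il18 and -0.02 (SE 0.337) for Nlrp3. Their adjusted p in edgeR ran from 0.227 for Aim2 to 0.983 for Nlrp3. SNI-Saline replicate 2 carried much of 2 values. Without it Nlrp1b was at 0.49 in place of 0.97 and Aim2 at 0.16 in place of 0.42. Without Sham-Saline replicate 2 the log2 fold change of Pycard was 0.48, and Pycard was then the only gene of the 9 to pass the DEG cut-offs. Gsdmd was called with an adjusted p of 0.0879 to 0.0954 when Sham-DMI replicate 1, 2 or 4 or SNI-DMI replicate 1 or 3 was left out, with log2 fold changes of 0.35 to 0.36.

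The SNI-DMI versus SNI-Saline comparison asked what DMI changed after injury. Of the 9 genes 1 fell by the test, Aim2, with a log2 fold change of -0.84 (SE 0.207), 0.559-fold of the SNI-Saline level, and an adjusted p of 0.0735 in edgeR's quasi-likelihood test. Of all genes 2.93% were called here, 1.61% in the downward direction. When SNI-DMI replicate 1, 2 or 3, or replicate 1 or 3 of SNI-Saline, was left out, edgeR called 0 of all genes, and without SNI-Saline replicate 4 it called 38. All 4 SNI-DMI mice lay below all 4 SNI-Saline mice for Aim2, as for 5.97% of all genes. The call did not hold when any 1 SNI-Saline mouse or SNI-DMI replicate 1, 2 or 3 was left out. The adjusted p was then 0.113 to 0.213, and the log2 fold change was -0.56 without SNI-Saline replicate 2 and -0.93 without replicate 1.

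Nlrp3 had the largest fitted decrease of the 9, with a log2 fold change of -1.24 (SE 0.363), a nominal p of 0.00311 and an adjusted p of 0.102 in edgeR. It was called without Sham-DMI replicate 1, at an adjusted p of 0.0703, and without Sham-DMI replicate 2, at 0.0886. Aim2 and Nlrp3 were the 2 genes that passed the DEG cut-offs, against 3.80% of all genes in the downward direction. Without SNI-DMI replicate 1 there were 4, with Casp4 and Nlrc4 added. DESeq2 called Aim2 alone, against 11.6% of the genes to which it gave an adjusted p, and gave none to Nlrp3, Nlrp1b and Nlrc4.

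Fitted values were below 0 for 8 of the 9 genes under SNI, with a median of -0.33 against -0.005 over all genes, and for 6 of the 9 once trends on GC content and exon length were removed, where Casp1 and Il18 turned. They were below 0 for 5 of the 9 without SNI-DMI replicate 3, where Casp1, Gsdmd and Il18 turned, for 6 without SNI-DMI replicate 2 and for 7 without SNI-Saline replicate 1 or 2. Of all genes 51.0% were below 0. Casp4 was at -0.33 (SE 0.161, adjusted p = 0.281 in edgeR) and Nlrp1b at -0.55 (SE 0.428, adjusted p = 0.515), and neither passed the test. Nlrp1b moved to -0.04 without SNI-Saline replicate 2 and to -0.93 without SNI-DMI replicate 1. Nlrc4 was at -0.38 (SE 0.417), and at -0.96 without SNI-DMI replicate 1. Casp1, at -0.10, Gsdmd, at -0.02, Il18, at -0.04, and Pycard, at 0.15, differed by less than the spread between mice.

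The Sham-DMI versus Sham-Saline comparison gives the effect of DMI without nerve injury. It shares no library with the comparison of DMI under SNI, but it shares Sham-Saline with the injury comparison, as the comparison of DMI under SNI shares SNI-Saline with it. The same 2 sensors had lower values, Nlrp3 at -0.78 (SE 0.351, adjusted p = 0.14 in edgeR) and Aim2 at -0.48 (SE 0.211, adjusted p = 0.131). Nlrp1b was at -1.11 (SE 0.494, adjusted p = 0.135). None of the 9 was called, while 23.4% of all genes were. An unadjusted p under 0.05 in edgeR was found for 3 of the 9 and for 6538 of all genes. DESeq2 called 1 of the 9, Nlrp1b, against 28.4% of all genes with an adjusted p.

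These 3 sensors passed the DEG cut-offs under sham surgery, as did 7.57% of all genes downward, and they did not overlap between Sham-DMI and Sham-Saline, as for 8.51% of all genes. The count of 3 was 0 when replicate 1 of either group or replicate 4 of Sham-Saline was left out and 1 without Sham-DMI replicate 2 or 3. Among the 9 genes 8 had values below 0, with a median of -0.20 against -0.021 over all genes, and 6 had once the trends on GC content and length were removed, where Casp1 and Casp4 turned. Of all genes 53.3% were below 0. Nlrc4 was at -0.66 (SE 0.458), Casp4 and Il18 at -0.20 each, Gsdmd at -0.16, Casp1 at -0.02 and Pycard at 0.14, and the adjusted p of these 6 genes in edgeR was 0.354 or more.

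The SNI-DMI versus Sham-DMI comparison gives the effect of injury in DMI-treated mice. Gsdmd, at 0.49 (SE 0.128), and Nlrp1b, at 1.54 (SE 0.486), passed the DEG cut-offs, as did 4.07% of all genes upward, with adjusted p of 0.147 and 0.223 in edgeR. None of the 9 was called by edgeR, against 0.402% of all genes, and these 2 had an unadjusted p under 0.05, as did 2586 of all genes. DESeq2 called both, against 2.55% of all genes with an adjusted p. For each of them 3 of 4 SNI-DMI mice lay above all Sham-DMI mice, and none of the 9 lay higher without overlap, against 2.89% of all genes. Without SNI-DMI replicate 3 both were called by edgeR, at adjusted p of 0.0629 for Gsdmd and 0.083 for Nlrp1b, and without Sham-DMI replicate 4 Gsdmd was, at 0.0931. Leaving out either library gave 4 genes past the DEG cut-offs.

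Of the other genes Nlrc4 was at 0.85 (SE 0.455), Casp4 at 0.26, Pycard at 0.23, Il18 at 0.22, Aim2 at 0.06, Casp1 at 0.03 and Nlrp3 at -0.47 (SE 0.376) after injury under DMI, with adjusted p of 0.468 or more in edgeR. Nlrc4 was at 0.27 without SNI-DMI replicate 1, and Nlrp3 at -0.94 without it and at -0.25 without replicate 2. Values were above 0 for 8 of the 9, and for 6 without SNI-DMI replicate 1, against 50.2% of all genes, with a median of 0.23 against 0.001. Gsdmd thus had fitted injury effects of 0.35 under saline and 0.49 under DMI on the log2 scale, and fitted DMI effects of -0.02 in SNI mice and -0.16 in sham mice.

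Whether DMI acted differently in injured and sham mice was tested as the difference of the 2 DMI effects. It ran from -0.46 for Nlrp3 to 0.56 for Nlrp1b on the log2 scale, with a median of 0.01 over the 9 genes. No inflammasome gene was called by edgeR or DESeq2, and none had an unadjusted p under 0.05 in edgeR, against 1692 of all genes. Over all genes edgeR called 0%, and DESeq2 called 0.0664% of the genes to which it gave an adjusted p, 16 in number. For Aim2 the difference was -0.36 and for Nlrp3 -0.46, and the adjusted p over the 9 genes ran from 0.777 to 0.993. A difference in the DMI effect between injured and sham mice was not detectable with 4 mice per group.

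**Figure D3:**
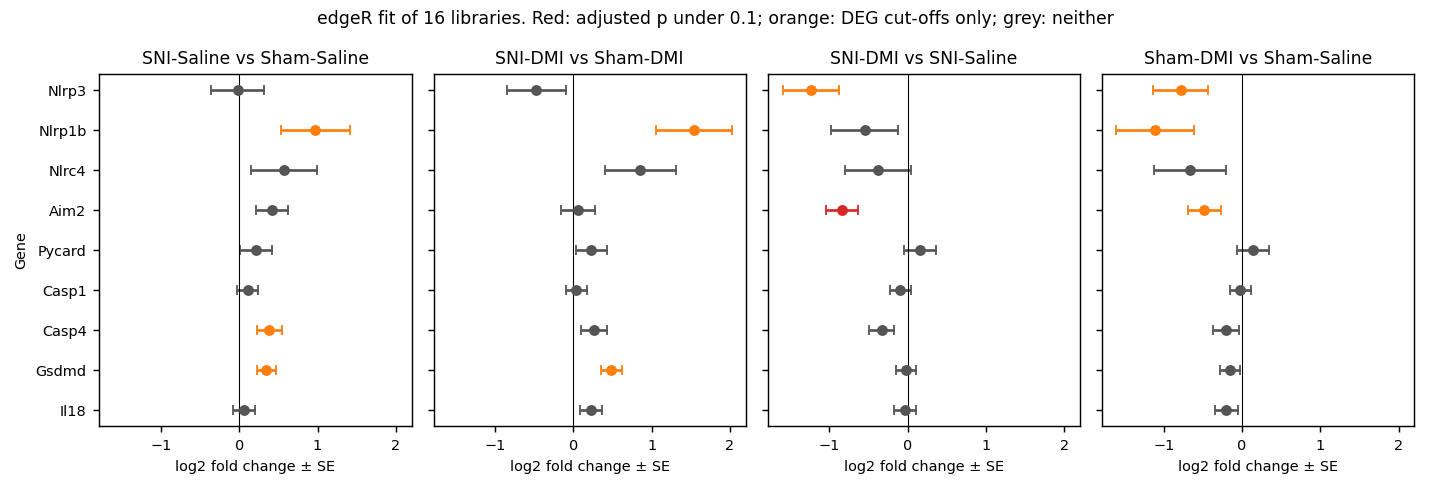
Log2 fold change ± SE of the 9 inflammasome genes in 4 comparisons, from the edgeR fit of 16 libraries. Aim2 in SNI-DMI versus SNI-Saline, at -0.84, is the only value with an adjusted p under 0.1 (red), and orange marks values that pass only the DEG cut-offs.

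Marker levels of immune cells were summed in the same libraries, and their relation to the levels of the inflammasome genes was not tested. In bulk DRG tissue, fewer cells of a type and less RNA per cell cannot be told apart. The 12 macrophage markers, all tested, had sums of 128 to 148 CPM in Sham-Saline (median 143) and 163 to 265 CPM in SNI-Saline (median 177). Under DMI the sums were 104 to 145 CPM in Sham-DMI (median 126) and 133 to 245 CPM in SNI-DMI (median 178). After injury 5 of the 12 rose by the test, against 5.85% of all genes called higher, and none of them fell. The highest sums belonged to SNI-Saline replicate 2 and SNI-DMI replicate 1, the libraries with the highest Nlrp1b. The part of macrophage content in the values of Gsdmd, Casp4, Nlrp1b and Nlrc4 was not tested.

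Under DMI the macrophage sums after SNI overlapped with those under saline, with medians of 178 and 177 CPM. None of the 12 markers was called by edgeR or DESeq2, with 1 at an unadjusted p under 0.05 in edgeR. Of the 12, 2 had log2 fold changes above 0, against 49.0% of all genes, with a median of -0.11. After DMI in sham mice 0 had, against 46.7% of all genes, with a median of -0.21. There edgeR called 1 lower, against 11.9% of all genes, and DESeq2 called 2, against 28.4% of those with an adjusted p. Neutrophil markers were lower after DMI. Their sums were 11.8 to 44.2 CPM in Sham-Saline against 4.70 to 20.4 CPM in Sham-DMI, and 18.2 to 55.6 CPM in SNI-Saline against 5.67 to 15.6 CPM in SNI-DMI. Of the 10 tested neutrophil markers, 8 fell by the test after DMI in sham mice and 2 in SNI mice, where 11.9% and 1.61% of all genes were called lower, and Cxcr2 and Elane were at 0 in some libraries. Monocyte markers, 5 of 6 tested, summed to 14.1 to 18.8 CPM in the saline groups and 9.77 to 14.6 CPM in the DMI groups, with 2 called lower after DMI in sham mice and 1 in SNI mice. The part of macrophage, neutrophil and monocyte content in the Aim2 and Nlrp3 levels was not tested.

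T and NK cell markers summed to 1.62 to 5.86 CPM per library and were highest in SNI-Saline replicate 2 and SNI-DMI replicate 1, with 9 of 10 tested. None of them was called by edgeR or, among the 1 to 4 given an adjusted p there, by DESeq2, and Cd8a, Il7r, Gzma and Ncr1 were at 0 in some libraries. In edgeR 2 had an unadjusted p under 0.05 after DMI in sham mice, against 30.6% of all genes, and 2 after injury under DMI, against 12.1%. B cell markers, 5 of 6 tested, summed to 31.7 to 53.0 CPM, with Ms4a1 at 0 in some libraries. Called lower were 1 after injury, 1 after DMI in SNI mice and 2 after DMI in sham mice. Of all genes 6.18%, 1.61% and 11.9% were called lower in these comparisons.

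**Figure D4:**
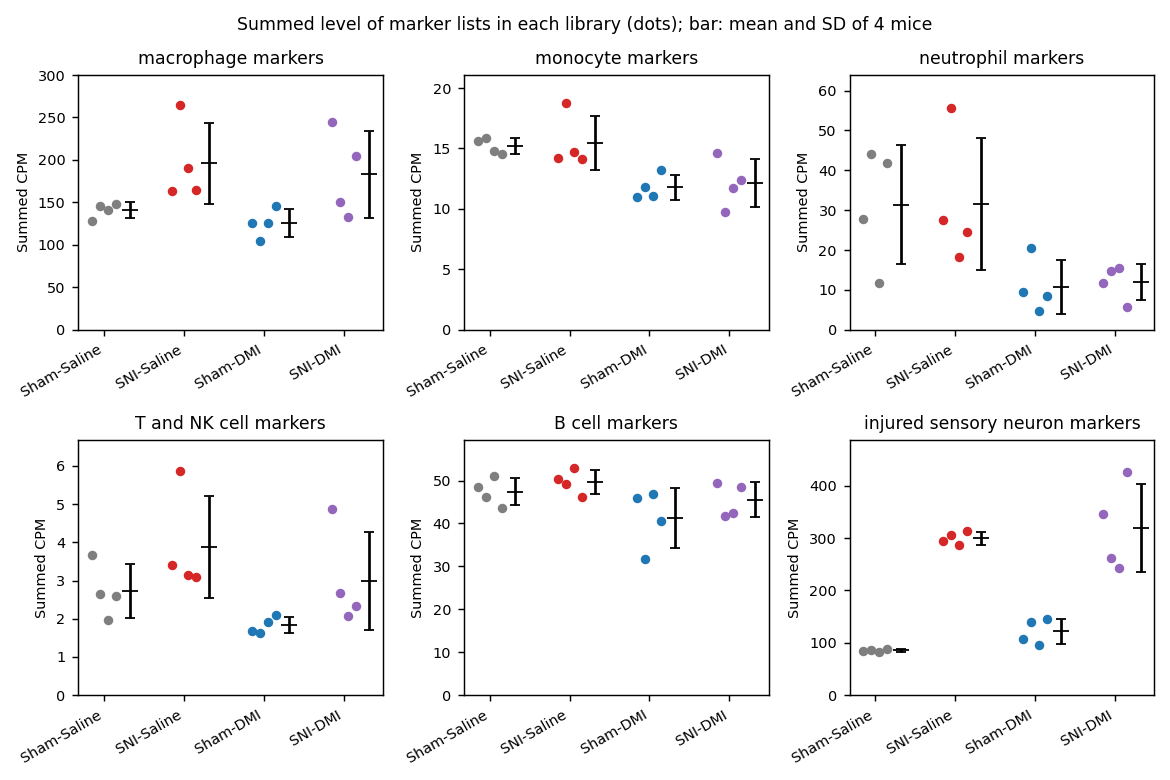
Summed CPM of 6 marker lists in each library (dots) with the mean and SD of 4 mice (bar) per group. Neutrophil sums are at 4.70 to 20.4 CPM in the DMI groups and 11.8 to 55.6 CPM in the saline groups, and macrophage sums are highest in SNI-Saline replicate 2, at 265 CPM, and SNI-DMI replicate 1, at 245 CPM.

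The other genes of the pathway were read from lists by role. Of 12 other sensors and sensor partners 8 were tested, and the only call was Naip6, a NAIP receptor that works with NLRC4. The call came after DMI in sham mice, where 11.9% of all genes were called lower and 8.51% lay lower without overlap. Naip6 was at 0.792 ± 0.140 CPM in Sham-Saline and 0.395 ± 0.145 CPM in Sham-DMI (SD, n = 4) without overlap, a log2 fold change of -0.97 (SE 0.319) with an adjusted p of 0.0457 in edgeR. It was at -0.83 after DMI in SNI mice, where its adjusted p was 0.178. Of the 50-base words in Naip6 transcripts 21.5% also occur in other Naip genes, so the split of reads between these is uncertain. Once GC and length trends were removed, the adjusted p was 0.106, and in the fits that left out Sham-DMI replicate 1, 3 or 4, or replicate 3 of Sham-Saline, the adjusted p was 0.1 to 0.145, above the threshold. The list median was -0.26 after DMI in sham mice and -0.33 in SNI mice.

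Among 14 genes of activation and regulation, all tested, edgeR called 2 after injury, against 12.0% of all genes. After DMI it called 1 in SNI mice, against 2.93%, and 3 in sham mice, against 23.4%. Txnip was the gene that rose after injury and fell after DMI, and it passed the DEG cut-offs in no comparison. Its product is a thioredoxin-binding protein that has been reported to bind NLRP3. Txnip was at 56.4 ± 5.0 CPM in Sham-Saline and 67.3 ± 2.03 CPM in SNI-Saline (SD, n = 4), and at 48.9 ± 3.45 CPM in Sham-DMI and 55.3 ± 2.38 CPM in SNI-DMI. The log2 fold change was 0.26 after injury, -0.28 after DMI in SNI mice and -0.20 after DMI in sham mice, with adjusted p of 0.0288, 0.063 and 0.0341 in edgeR. SNI-Saline did not overlap with Sham-Saline or SNI-DMI. The injury call was kept in all 16 fits without 1 library, that after DMI in SNI mice in 10 of 16, with adjusted p up to 0.214, and that in sham mice in 12 of 16, with adjusted p up to 0.143. The call in SNI mice was also lost once GC and length trends were removed, at 0.111, and that in sham mice with the 8 libraries of the comparison, at 0.132. Txnip overlaps Gm15441 on the opposite strand, so its counts carry the same uncertainty as those of Pycard.

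Serpinb1a, an inhibitor of neutrophil proteases and of caspase activation, rose in both comparisons that start from Sham-Saline. Of all genes 5.85% were called higher after injury and 11.6% after DMI in sham mice. Serpinb1a was at 94.6 ± 2.61 CPM in Sham-Saline and 128 ± 6.55 CPM in SNI-Saline (SD, n = 4), and at 120 ± 11.7 CPM in Sham-DMI and 122 ± 14.6 CPM in SNI-DMI. The log2 fold change was 0.43 after injury and 0.35 after DMI in sham mice, with adjusted p of 0.00771 and 0.00677 in edgeR, kept in all 16 fits without 1 library. Brcc3, a deubiquitinase of NLRP3, fell in sham mice given DMI by 0.16 on the log2 scale, at an adjusted p of 0.0353, and was at 0.34 in the opposite direction once the trends on GC content and length were removed. Leaving out replicate 1 of either group also ended its call, at adjusted p up to 0.15.

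Of 10 cytokine genes, receptors and decoys 9 were tested, and 2 receptor chains fell in sham mice given DMI, where 11.9% of all genes were called lower and 23.4% in either direction. Il18rap, the accessory chain of the IL-18 receptor, was at 0.545 ± 0.190 CPM in Sham-Saline and 0.212 ± 0.0632 CPM in Sham-DMI, a log2 fold change of -1.34 (SE 0.398) with an adjusted p of 0.0287 in edgeR. Il1rap, the chain shared by IL-1 family receptors, was at 12.0 ± 0.468 and 8.78 ± 1.59 CPM, a log2 fold change of -0.46 (SE 0.119) with an adjusted p of 0.0152. Both did not overlap between the groups, and both were called in all 16 fits without 1 library. Once GC and length trends were removed, Il1rap was at -0.21 and was not called, at an adjusted p of 0.213. Il1rap overlaps the antisense gene Gm20319. Il1b, the IL-1β gene, was at -1.35 (SE 0.623) in sham mice given DMI and was not called by edgeR, at an adjusted p of 0.15, while DESeq2 called it. Its groups overlapped, and between 3 and 44 reads per library lay behind it. Il1b overlaps the antisense gene Il1bos in exons. No gene of this list was called by edgeR after injury or after DMI in SNI mice, nor by DESeq2 among the 4 given an adjusted p there, where 0 and 3 genes had an unadjusted p under 0.05 in edgeR and the list medians were 0.22 and -0.28. Il1a did not pass the filter on low counts.

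The 16 guanylate-binding proteins and interferon factors, all tested, had the highest list median after injury, 0.72 under saline and 1.03 under DMI, against -0.001 and 0.001 over all genes. Guanylate-binding proteins coat bacteria and assist caspase-11 and AIM2. After injury under saline 5 of the 16 rose, against 5.85% of all genes called higher. They were Gbp2, Gbp3, Gbp5, Irf1 and Gbp8, the last of which is outside the rule for named genes. Gbp2 went from 16.4 ± 2.83 CPM in Sham-Saline to 65.6 ± 69.2 CPM in SNI-Saline (SD, n = 4), with SNI-Saline mice between 24.4 and 169 CPM, a log2 fold change of 2.0 and an adjusted p of 0.0448 in edgeR. Gbp3 was at 0.96, Gbp5 at 1.06 and Irf1 at 0.73, with adjusted p of 0.0789, 0.0926 and 0.0636. The calls of Gbp2, Gbp3, Gbp5 and Irf1 were lost in 2, 6, 8 and 5 of the 16 fits without 1 library, and those of Gbp3, Gbp5 and Irf1 once GC and length trends were removed, at adjusted p of 0.125, 0.119 and 0.119. Without SNI-Saline replicate 1 the log2 fold changes of Gbp2, Gbp3, Gbp5 and Irf1 were 0.94, 0.64, 0.58 and 0.43, and none of these 4 was called.

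After DMI none of the 16 was called in SNI mice by edgeR or DESeq2, with 1 at an unadjusted p under 0.05 and a list median of -0.46, and 3 fell in sham mice, against 11.9% of all genes called lower there, with a list median of -0.59. Gbp9 went from 7.46 ± 0.817 to 3.35 ± 0.584 CPM, a log2 fold change of -1.15 with an adjusted p of 0.0155 in edgeR. Gbp9 overlaps Gbp4 and Gbp8 in exons on the same strand, so its counts and those of Gbp8 are uncertain. Exon overlaps also make those of Gbp6 (Gm43302) and Gbp7 (Gm43802) uncertain, on the same strand. On the opposite strand the same holds for Gbp2 (Mir6381), Irf1 (Gm17334) and Irf7 (Phrf1). Gbp7 was at -0.68 and Gbp6 at -1.52, with adjusted p of 0.0407 and 0.055, and these 2 calls were lost without Sham-DMI replicate 1, at adjusted p of 0.128 and 0.158, in 2 and 1 other fits without 1 library, and with the trends removed, at 0.121 and 0.104. After injury under DMI all 16 had values above 0, and 14 passed the DEG cut-offs upward, against 4.07% of all genes. In edgeR 15 had an unadjusted p under 0.05, against 12.1% of all genes. DESeq2 called 6 of the 16, against 2.55% of all genes with an adjusted p, and edgeR called 1, against 0.402%. This was Irf7, an interferon regulatory factor, with a log2 fold change of 1.29 and an adjusted p of 0.0841 in edgeR. The call was lost in 10 of the 16 fits without 1 library, with adjusted p up to 0.27, and with the 8 libraries of the comparison, at 0.199.

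The 12 priming genes, all tested, had medians near 0, from -0.06 to 0.14 in the 4 comparisons. Of these genes edgeR called 1 after injury, against 12.0% of all genes, and 2 after DMI in sham mice, against 23.4%. After injury 1 of the 12 passed the DEG cut-offs upward, against 3.64% of all genes. DESeq2 called 3 there, Ifnar1 and, outside the rule for named genes, Tlr2 and Tnfaip3, against 21.2% of all genes with an adjusted p. Tlr2 was at 1.06 to 1.65 CPM in Sham-Saline and 1.82 to 2.54 CPM in SNI-Saline. Ifnar1, a chain of the type I interferon receptor, fell by 0.16 after injury and by 0.14 after DMI in sham mice on the log2 scale, at adjusted p of 0.0669 and 0.0647 in edgeR, and lost these calls in 7 and 10 of the 16 fits without 1 library. Both calls were also lost with no filter on low counts and with the trends removed, where the value in sham mice was -0.07, and the call in sham mice was lost with 8 libraries. Tlr4, the lipopolysaccharide receptor, was called lower after DMI in sham mice at -0.48, with an adjusted p of 0.0787, and lost the call in 8 of the 16 fits without 1 library. Once GC and length trends were removed, it was at -0.21, at an adjusted p of 0.421, and with only the 8 libraries of the comparison its adjusted p was 0.103. Of 9 other pore-forming genes 3 were tested and none was called by edgeR or DESeq2 in any comparison, with 1 at an unadjusted p under 0.05 after injury, and Gsdma2 and Gsdmc3 had no counts.

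**Figure D5:**
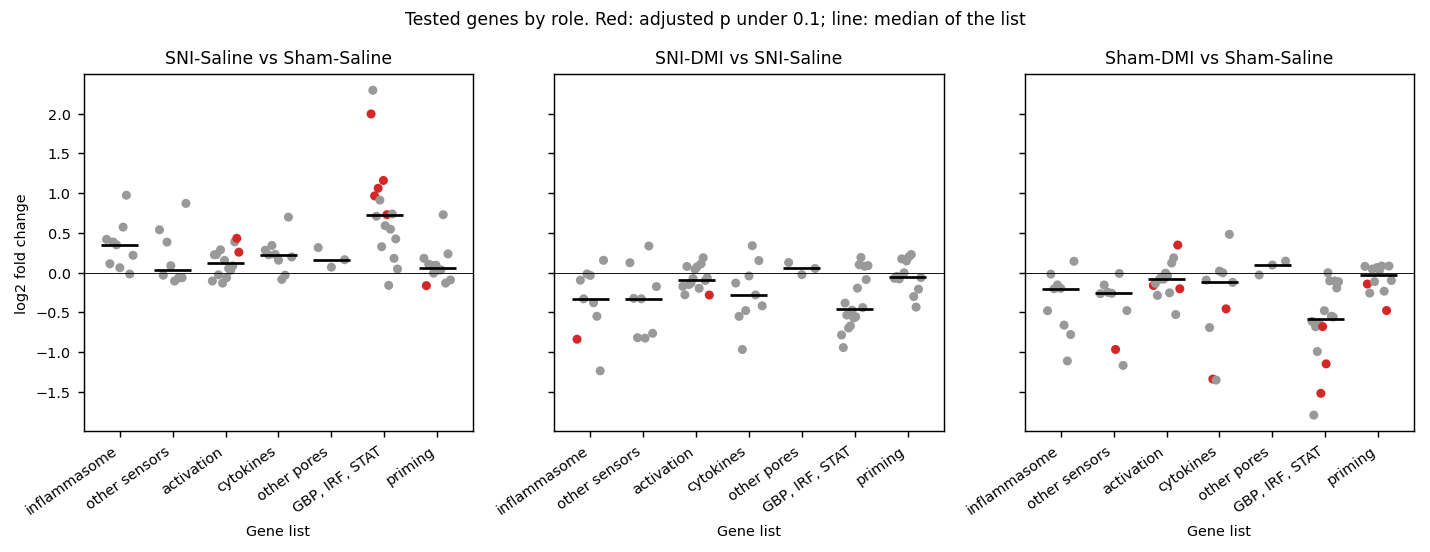
Log2 fold change of each tested gene of the inflammasome pathway by list (dots, red for an adjusted p under 0.1) with the list median (line) in 3 comparisons. The list of guanylate-binding proteins, interferon regulatory factors and STAT genes has the highest median after injury, 0.72, and the lowest after DMI, -0.46 in SNI mice and -0.59 in sham mice.

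Across the 16 libraries, the deviation of each gene's log2 CPM from its group mean was compared between genes. These correlations describe libraries that share depth and composition and carry no test. Among the 9 genes the highest were 0.72 for Casp1 with Il18, 0.71 for Nlrp3 with Casp1, 0.68 for Nlrp3 with Il18, and 0.65 each for Casp4 with Gsdmd and Aim2 with Nlrp1b. The lowest was 0.02 for Pycard with Aim2.

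The genes nearest to 8 of the 9, all but Pycard, were taken by the same measure from the 15749 genes with a mean of at least 1 CPM. Nearest to Nlrp3 were Trim21 (r = 0.94), Irgm1 (0.90) and H2-T23 (0.89), and nearest to Casp1 were Psmb10, H2-Ab1 and Ifitm3 (0.86 each). Gsdmd was nearest to Trim12a, Parp12 and Pdzrn3 (0.88 each), and Il18 to Ifnar2 (0.86), Gm5905 (0.83) and Cd83 (0.82). Nlrp1b was nearest to Ptprc (0.88), Col5a3 (0.84) and Dock2 (0.82), and Aim2 to Igsf6 (0.86), Dennd1c (0.84) and Gm9238 (0.83). Casp4 was nearest to Nckap1 (0.85), Ube2t (0.83) and Sin3a (0.82), and Nlrc4 to Pcdhb8 (0.85), Pole (0.77) and Flad1 (0.75).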

How the data were processed

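RNA from the L3-6 DRGs of 16 mice, 4 per group, was sequenced by the authors in pairs of 50-base reads from stranded mRNA libraries. The authors aligned the reads to mm10 with HISAT2 and counted them per Ensembl gene with HTSeq. The deposited values are whole-number counts without normalization. Tool versions, the annotation release and the strand setting are not given in the sources used here. Lines of unassigned reads (18.83% to 20.44% per library) were left out.

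Counts were analysed in R 4.3.3. Genes kept by filterByExpr of edgeR 4.0.16 (21371) had TMM scaling and 1 glmQLFit model of all 16 libraries, with a coefficient for each group. Adjusted p-values are by Benjamini-Hochberg over all tested genes, with a call at 0.1, and SE is the absolute log2 fold change divided by the square root of F. The procedure was tested on simulated data. A DESeq2 adjusted p that is missing after its filter on low counts was left missing. DESeq2 1.42.0 and mgcv 1.9.3 served the alternatives. These were upper-quartile scaling, DESeq2 size factors, no filter, at least 10 counts in every library, DESeq2, the 8 libraries of a comparison, the replicate number as a block, correction for GC content and exon length by smooth trends (basis size 8), and each library left out. Symbols, coordinates and exon lengths come from GENCODE M21 on GRCm38, which holds 52403 of the 52636 genes, and promoters from RefSeq.

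The 9 genes and the lists were chosen with earlier results of these data known. Named genes are the 9, from each other list up to 4 called genes per comparison by smallest p, and the 3 genes nearest to each of the 9, of which those for Pycard are not reported here. The CPM limit given for a gene without reads covers counting error only. The SD and SE values also include the spread between mice.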

Additional observations from a re-analysis of the deposited data

Results flagged for a closer look

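In each of the 4 groups each of the 9 genes was checked for a library far from the other 3 of its group by Dixon's test, 36 checks in all, of which chance alone would mark about 1 in 20. It marked 2. Pycard in Sham-Saline replicate 2 was at 1.96 CPM, while the other 3 mice were at 1.03 to 1.16 CPM, a gap of 0.856 of the range of the group. Nlrp1b in SNI-Saline replicate 2 was at 1.81 CPM, while the other 3 mice were at 0.657 to 0.725 CPM, a gap of 0.941 of the range. The same SNI-Saline library had the highest macrophage, neutrophil and T and NK cell marker sums of its group, at 265, 55.6 and 5.86 CPM, and the part of these in its Nlrp1b level was not tested. The log2 fold changes without either library are given with the injury comparison. No difference between the DMI effects of injured and sham mice was marked.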

How the results depend on the processing

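Of 1061 fitted values of the 9 genes under the alternatives, 990 kept their direction and side of the threshold, 28 became calls, 9 lost the call and 34 turned in direction. Calls among the 9 genes after injury were 0 in the fit as reported, 1 with upper-quartile scaling and with at least 10 counts in every library, 2 with DESeq2 and with the 8 libraries of the comparison, and 0 to 1 without 1 library. After DMI in SNI mice there was 1, against 2 with upper-quartile scaling, no filter and at least 10 counts, 0 with the trends removed, and 0 to 2 without 1 library. After DMI in sham mice there were 0, against 1 with DESeq2, 2 with 8 libraries and 0 to 1 without 1 library. After injury under DMI there were 0, against 2 with DESeq2 and 0 to 2 without 1 library. Genes past the DEG cut-offs numbered 3, 2, 3 and 2 in these comparisons and 1 to 4, 2 to 4, 0 to 3 and 2 to 4 without 1 library, and after injury under DMI 1 with at least 10 counts, a filter that drops Nlrp1b and Nlrc4.

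Deviations of same-numbered mice had r from -0.081 to 0.184, over 0.1 in 5 of 24 pairs, with a median of 0. Those of different-numbered mice had r from -0.248 to 0.169, over 0.1 in 7 of 72 pairs, with a median of 0.0015. Correlations this weak cannot decide whether the labels' replicate numbers mark a pairing, so the block was fitted as an alternative. With the replicate block the calls among the 9 genes were 0 after DMI in SNI mice, where the adjusted p of Aim2 was 0.111, and 1 after DMI in sham mice, Nlrp3 at -0.81 with an adjusted p of 0.0874. Over all genes the block gave 172 calls after DMI in SNI mice in place of 626.

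Over its alternatives other than left-out libraries, the adjusted p of Aim2 after DMI in SNI mice ran from 0.013 to 0.177, the highest with the trends removed. Removal of these trends left 837, 6, 4019 and 239 calls over all genes in place of 2571, 626, 5010 and 86, with 3274 higher and 745 lower after DMI in sham mice in place of 2475 and 2535. DESeq2 gave 3390, 1859, 5580 and 502. Without 1 library the fits gave 682 to 3286, 0 to 1842, 3286 to 6094 and 17 to 850.

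The difference of DMI effects for Pycard was -0.0049 with upper-quartile scaling, -0.0012 with the block and -0.0054 with the trends removed. With the trends removed Casp1 and Il18 were at 0.0291 and 0.0542 after DMI in SNI mice, and Casp1 and Casp4 at 0.146 and 0.0219 in sham mice. Brcc3, among 20 calls of other pathway genes followed under the same alternatives after seeing the data, was at 0.337 with the trends removed in place of -0.163, and 5 of the 20 were kept throughout. Without 1 library the direction turned in 10 results, none of them called. They are, after DMI in sham mice, Casp1 (-0.0627 to 0.0898), after DMI in SNI mice, Casp1 (-0.179 to 0.004), Gsdmd (-0.0811 to 0.0746) and Il18 (-0.114 to 0.0481), after injury, Nlrp3 (-0.27 to 0.173), after injury under DMI, Casp1 (-0.064 to 0.128) and Aim2 (-0.0277 to 0.176), and for the difference, Casp1 (-0.179 to 0.0049), Pycard (-0.245 to 0.113) and Nlrc4 (-0.312 to 0.547). The cause was not tested for any of these. Nlrp3, Nlrp1b and Nlrc4 rest on under 120 reads per library, Aim2 on 38 to 135 and Pycard on 59 to 139, which limits their precision. No 8-library fit can give the difference of DMI effects.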
